A study of Mus musculus with 6 samples.

Results

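The 10 genes described here serve cysteine supply, glutathione, thioredoxin and the NRF2 response: Cth, Cbs, Gclc, Gclm, Gss, Gstm1, Txn1, Txnrd1, Hmox1 and Nqo1. They were chosen by symbol, with earlier results of these data known, from the 47725 genes of the deposited count table. Each symbol matched 1 row. Expression was measured by RNA-seq in 6 libraries of CD4+ T cells from wild type C57BL/6 mice. Naive cells were cultured for 3 days with CKBA, which derives from the frankincense triterpenoid AKBA (3 libraries, CKBA1 to CKBA3), or with the vehicle DMSO (3 libraries, DMSO1 to DMSO3). All 6 cultures held TGF-β1, IL-6 and IL-23 (each 10 ng/ml) together with antibodies to CD28 (2 µg/ml), IFN-γ (10 µg/ml) and IL-4 (5 µg/ml), which drives the TH17 fate. The medium, with 10% serum, also held the thiol β-mercaptoethanol, at 55 nM as labelled. No dose of CKBA and no age of the mice were given in the sources used here.

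The libraries held 19838347 to 25331863 counts, and 13928 genes were abundant enough to test. Although the labels name epidermis as the tissue, all 8 T cell markers examined were detected in every library, with summed levels of 2486 to 2730 CPM (counts relative to a TMM-scaled library size) with CKBA and 2974 to 3160 CPM with DMSO. Of 8 keratinocyte markers, Krt14, Krt1, Krt15, Trp63 and Lor had no count in any library and Krt5 had one in CKBA1 alone, at 0.0494 CPM. Krt10 and Dsp were detected in every library, Krt10 at 1.76 to 2.00 CPM with CKBA and 0.932 to 1.42 CPM with DMSO, and Dsp at 3.98 to 6.67 CPM with CKBA and 4.02 to 4.76 CPM with DMSO. The 8 genes summed to 5.74 to 8.65 CPM with CKBA and 5.37 to 5.69 CPM with DMSO. CKBA3 and DMSO3 stood apart from the other libraries. Over the tested genes, deviations from the group mean correlated at 0.44 between CKBA3 and DMSO3, and at -0.33 to -0.31 between either of them and libraries 1 and 2 of the other group. Genes are not independent replicates, so this only describes the libraries. The labels do not say whether replicates were separate cultures or animals, so p-values cover only sample-to-sample spread, possibly technical. In such bulk samples, fewer cells of a type and less RNA per cell cannot be told apart.

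Cysteine is the scarce building block of glutathione. Cells import it as cystine through the xCT carrier, or make it from methionine by transsulfuration, in which cystathionine β-synthase (Cbs) and cystathionine γ-lyase (Cth) act in turn. Glutamate-cysteine ligase (Gclc and Gclm) and glutathione synthetase (Gss) then build glutathione, while thioredoxin and its reductase form a parallel thiol-reducing system. NRF2 is a transcription factor held down by KEAP1 and freed by electrophiles or oxidants, and it acts through antioxidant response elements near genes such as Nqo1, Hmox1, Gclm and Txnrd1. Activated T cells need glutathione to sustain growth. Shortage of amino acids raises cystine and cysteine supply through another factor, ATF4.

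With CKBA, Cth rose 13.7-fold, Hmox1 2.38-fold and Txn1 1.27-fold, while Gstm1 fell to 0.264 of its DMSO level. The other 6 genes did not pass the test or were too low for it. Tests were edgeR quasi-likelihood F tests over all 13928 genes, with p-values adjusted by Benjamini-Hochberg (BH) and called under 0.05. Of the 9 genes tested, 3 were higher and 1 was lower, against 7.86% of all tested genes called higher and 9.23% called lower. The groups did not overlap in 5 genes, with CKBA above DMSO in Cth, Hmox1, Txn1 and Txnrd1 and below it in Gstm1. Over all tested genes the CKBA libraries lay wholly above in 18.2% and wholly below in 18.4%. The median log2 fold change was 0.32 over the 9 genes and 0.01 over all tested genes. The genes were chosen with earlier results of these data known, so these shares and medians only describe them. Nqo1 passed the filter on low counts only through CKBA, with 3 CKBA libraries and 1 DMSO library above the minimum. The labels do not state that replicate numbers pair the groups. With the number as a block in the model, 5 of the 9 were higher and 1 was lower, against 13.8% and 14.4% of all tested genes.

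**Figure D1:**
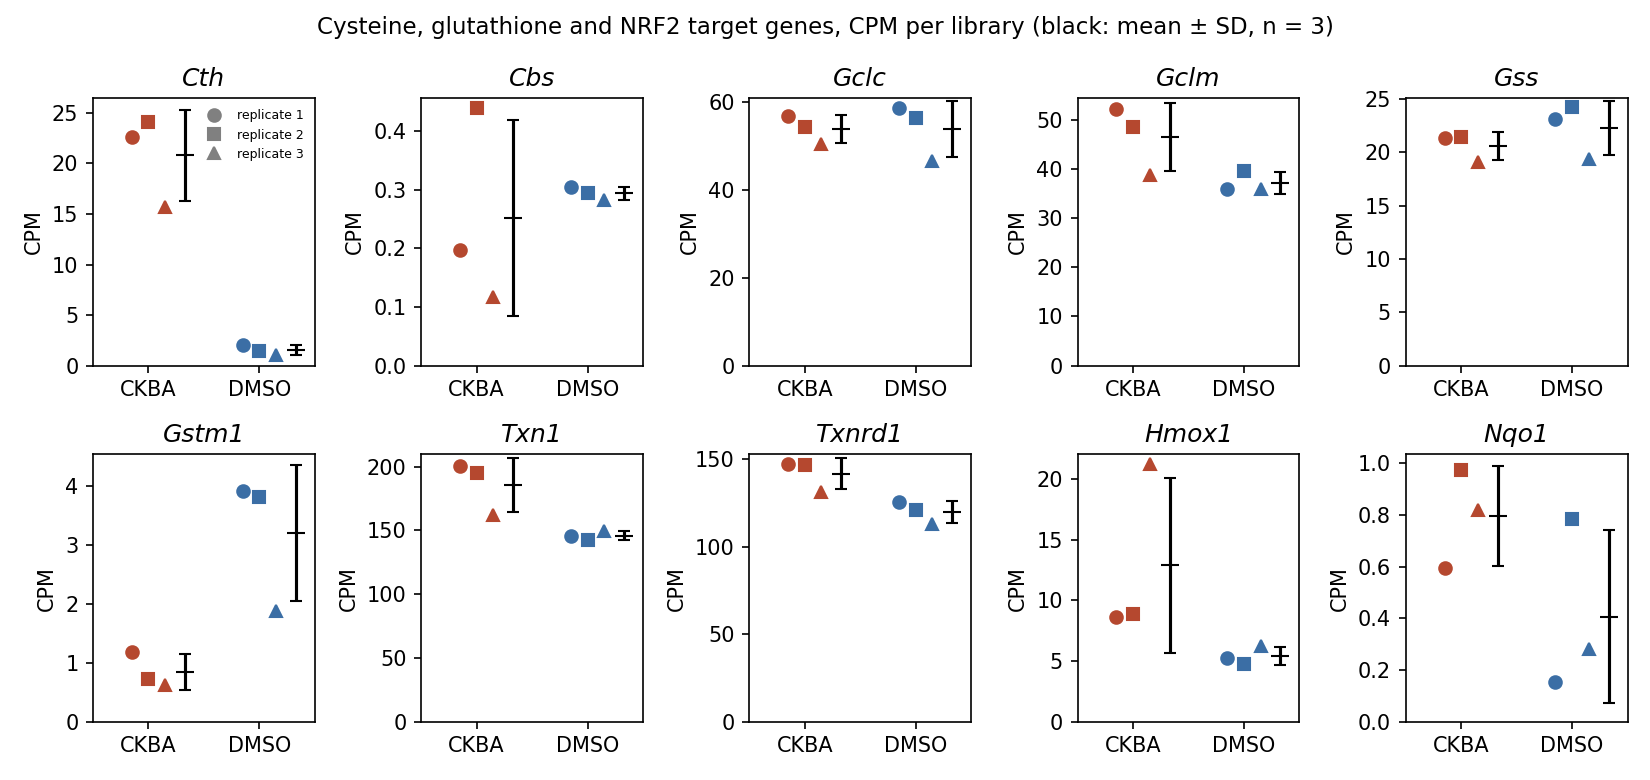
Level of each of the 10 genes in CPM (y axis, starting at 0) in the 3 CKBA and 3 DMSO libraries, with the replicate number as symbol and the mean ± SD in black. The groups are far apart for Cth, CKBA3 is the highest library for Hmox1, and the groups overlap for Gclc and Gss.

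Levels of different genes are compared per length, in the FPKM values that the authors deposited. Txn1 was the most abundant of the 10, at 175.6 ± 17.3 FPKM with CKBA and 139.3 ± 6.11 FPKM with DMSO (SD, n = 3 each). Txnrd1 came next, at 41.3 ± 2.11 FPKM with CKBA and 35.2 ± 1.27 FPKM with DMSO. Gclc ranked 3 in both groups, at 15.7 ± 0.700 FPKM with CKBA and 15.8 ± 1.56 FPKM with DMSO. Cth ranked 4 with CKBA, where its range overlapped that of Gclm, and 8 with DMSO, where it overlapped that of Nqo1. Gclm and Hmox1 also overlapped with CKBA, Gstm1 and Nqo1 with CKBA, and Hmox1 and Gstm1 with DMSO, while the other neighbours in each order did not. Cbs was the lowest, at 0.04 to 0.13 FPKM with CKBA and 0.09 FPKM in each DMSO library.

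**Figure D2:**
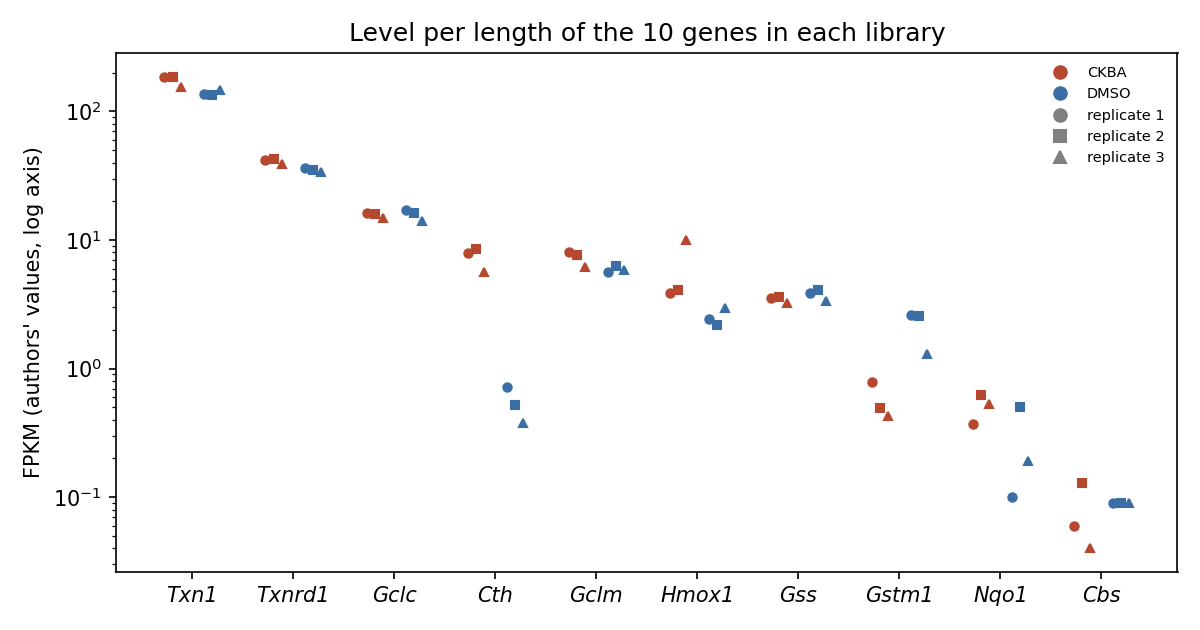
Deposited FPKM of the 10 genes in each library (log axis), ordered by the mean of the CKBA group, with CKBA left of DMSO for each gene. Cth stood at 5.69 to 8.58 FPKM with CKBA and 0.38 to 0.72 FPKM with DMSO. On the log axis its gap between the groups was larger than for the other 9 genes.

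Cth encodes cystathionine γ-lyase, the enzyme that releases cysteine in the last step of transsulfuration (ENSMUSG00000028179, GRCm38 chromosome 3, 157894248 to 157925077, minus strand). It had 457, 494 and 402 counts in CKBA1, CKBA2 and CKBA3, against 40, 30 and 22 counts in DMSO1, DMSO2 and DMSO3. After scaling these were 22.6, 24.1 and 15.7 CPM with CKBA, against 2.03, 1.47 and 1.04 CPM with DMSO. The groups did not overlap, and library 3 was the lowest of each group. The log2 fold change was 3.78 ± 0.28 (SE; edgeR quasi-likelihood, BH-adjusted p = 4.42e-04). Within replicate numbers 1, 2 and 3 the log2 difference was 3.41, 3.95 and 3.81. Cth was still called whichever library was left out, with log2 fold changes of 3.565 to 4.045, and with libraries 1 and 2 of each group summed to 1 (edgeR quasi-likelihood, BH-adjusted p = 0.0283). The predicted gene Gm43314 overlaps it on the same strand, and no 50-base stretch of its longest coding transcript occurred in a transcript of another gene in GENCODE M21.

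Cbs encodes cystathionine β-synthase, which acts before Cth in the same pathway (ENSMUSG00000024039, chromosome 17, 31608894 to 31637238, minus strand). It had 4, 9 and 3 counts in CKBA1, CKBA2 and CKBA3, against 6, 6 and 6 counts in DMSO1, DMSO2 and DMSO3. The group sums were 16 counts with CKBA (95% exact Poisson interval 9.14 to 26.0) and 18 counts with DMSO (10.7 to 28.4), intervals that cover counting error only. No library reached the filter's minimum, and no difference was detectable at this depth. Without the filter the log2 fold change was -0.24 ± 0.73 (edgeR quasi-likelihood, BH-adjusted p = 0.883).

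Both chains of the cystine carrier were also higher with CKBA. Slc7a11, the light chain xCT, had 3.90, 3.95 and 2.30 CPM in CKBA1, CKBA2 and CKBA3, against 0.610, 1.33 and 0.518 CPM in DMSO1, DMSO2 and DMSO3. Its log2 fold change was 2.04 ± 0.42 (edgeR quasi-likelihood, BH-adjusted p = 0.0159). Slc3a2, the heavy chain that xCT shares with other amino acid carriers, had 346, 331 and 261 CPM with CKBA, against 102, 106 and 104 CPM with DMSO. Its 3 CKBA libraries lay far above the DMSO libraries, with a log2 fold change of 1.59 ± 0.11 (edgeR, adjusted p = 4.24e-04). These were the 2 called of 11 other genes of cystine and cysteine supply, and 0 were called lower, against 7.86% higher and 9.23% lower of all tested genes. The mitochondrial sulfide oxidase gene Sqor had a log2 fold change of -0.45 ± 0.13 (adjusted p = 0.055, and 0.037 with the replicate block, by edgeR). Slc7a11 was no longer called without CKBA1, CKBA2 or DMSO1 (adjusted p = 0.066 to 0.0781, edgeR), nor with libraries 1 and 2 summed (0.159). It was low, with 79, 81 and 59 counts in CKBA1, CKBA2 and CKBA3, against 12, 27 and 11 counts in DMSO1, DMSO2 and DMSO3. Predicted genes overlap Slc7a11 on both strands, with Gm37692 and Gm37498 on the same strand.

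Chac1, whose product breaks down glutathione, had 13.8, 13.0 and 13.7 CPM in CKBA1, CKBA2 and CKBA3, against 0.102, 0.294 and 1.60 CPM in DMSO1, DMSO2 and DMSO3. DMSO3 stood above the other DMSO libraries, while the 3 CKBA libraries were alike. The log2 fold change was 4.30 ± 0.62 (edgeR quasi-likelihood, BH-adjusted p = 0.00453), and it was called in each model that left out 1 library. Without DMSO3 it was 6.04 (edgeR, BH-adjusted p = 6.02e-05). Chac1 passed the filter on low counts through CKBA, with 3 CKBA libraries and 1 DMSO library above the minimum, so a gene at its DMSO level had to be higher with CKBA to be tested. With no filter it was 4.31 (edgeR, BH-adjusted p = 0.0456), and with libraries 1 and 2 summed it was not called (edgeR, BH-adjusted p = 0.123).

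Slc7a11 and Chac1 are known targets of ATF4, which binds C/EBP-ATF response elements. The 250 bases before their start sites, from RefSeq on GRCm38.p6, are shown because they hold the element's letters TGATGCAA (searched on both strands, in capitals), as did 0.791% of 32851 such windows of all genes:
Slc7a11, chr3:50443614-50443863, minus strand: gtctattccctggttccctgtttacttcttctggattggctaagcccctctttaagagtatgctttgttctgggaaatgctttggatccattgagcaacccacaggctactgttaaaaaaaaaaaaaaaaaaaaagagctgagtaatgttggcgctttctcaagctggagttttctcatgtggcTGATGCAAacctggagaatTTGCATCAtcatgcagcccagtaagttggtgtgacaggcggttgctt
Chac1, chr2:119350992-119351241, plus strand: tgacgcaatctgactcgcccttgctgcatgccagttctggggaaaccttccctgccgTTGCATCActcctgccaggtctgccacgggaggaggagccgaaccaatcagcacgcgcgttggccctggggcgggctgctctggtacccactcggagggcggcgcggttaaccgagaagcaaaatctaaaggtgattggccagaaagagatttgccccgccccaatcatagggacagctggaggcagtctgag
Slc7a11 held the letters at -66 to -59 and, on the opposite strand, at -47 to -40 from the start site, and Chac1 held them at -193 to -186 on the opposite strand. A match of letters is a description and not evidence of binding. Cth had no promoter entry and was not searched.

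The genes most like Cth over the 6 libraries were named by the Pearson correlation of log2 CPM, among 10089 tested genes with a mean of at least 5 CPM. They were Atf4 (r = 0.998), the cholesterol esterification gene Soat2 (r = 0.997) and Cdc42se2 (r = 0.996). The value exceeded 0.95 in 325 genes, since a gene that separates the groups scores high, and all genes share the depth and replicate structure of these libraries. Atf4 had 317, 304 and 271 CPM in CKBA1, CKBA2 and CKBA3, against 169, 160.2 and 146 CPM in DMSO1, DMSO2 and DMSO3. Like Cth it was lowest in library 3 of each group, and its log2 fold change was 0.91 ± 0.09 (edgeR quasi-likelihood, BH-adjusted p = 0.00106). Summed levels of 6 B cell markers, each detected in every library, were also uneven over replicate numbers, at 59.8, 60.3 and 13.0 CPM in CKBA1, CKBA2 and CKBA3 and at 31.0, 31.9 and 25.8 CPM in DMSO1, DMSO2 and DMSO3. Their part in the results for Cth and Atf4 was not tested.

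None of the 3 genes that build glutathione passed the test. Gclc, the catalytic subunit of glutamate-cysteine ligase (ENSMUSG00000032350, chromosome 9, 77754535 to 77794485, plus strand), had 56.8, 54.4 and 50.4 CPM in CKBA1, CKBA2 and CKBA3, against 58.7, 56.4 and 46.7 CPM in DMSO1, DMSO2 and DMSO3. The groups overlapped, and DMSO3 was the lowest of the 6 libraries. The log2 fold change was -0.00076 ± 0.11 (edgeR quasi-likelihood, BH-adjusted p = 0.997). Gss, glutathione synthetase (ENSMUSG00000027610, chromosome 2, 155563181 to 155592810, minus strand), had 21.3, 21.4 and 19.1 CPM with CKBA, against 23.1, 24.3 and 19.4 CPM with DMSO. Its groups overlapped as well, with a log2 fold change of -0.11 ± 0.12 (edgeR, adjusted p = 0.563). Gss overlaps Acss2, Gssos1 and Gssos2 on the opposite strand and shares 7.11% of its 50-base stretches with other genes, mainly these; strand was not stated for the libraries, so their reads cannot be told apart.

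Gclm, the modifier subunit that raises the activity of Gclc (ENSMUSG00000028124, chromosome 3, 122245557 to 122270732, plus strand), had 52.3, 48.5 and 38.7 CPM in CKBA1, CKBA2 and CKBA3, against 35.8, 39.6 and 35.9 CPM in DMSO1, DMSO2 and DMSO3. CKBA3 lay below DMSO2, so the groups overlapped. Gm17494 overlaps Gclm on the opposite strand and Gm6061 on the same strand. The log2 fold change was 0.32 ± 0.12 and not past the threshold (edgeR quasi-likelihood, BH-adjusted p = 0.107). With the replicate block it was 0.32 ± 0.10 and passed (edgeR, BH-adjusted p = 0.0441), as it did without CKBA3 (adjusted p = 0.00857). The differences within replicate numbers 1, 2 and 3 were 0.54, 0.29 and 0.11. The FPKM ratio of Gclc to Gclm was 1.998, 2.06 and 2.394 in CKBA1, CKBA2 and CKBA3, against 3.007, 2.614 and 2.395 in DMSO1, DMSO2 and DMSO3. CKBA3 and DMSO3 were equal within the rounding of the deposited FPKM, so no gap between the groups was resolved.

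Gstm1 encodes a mu-class glutathione transferase, which joins glutathione to electrophiles (ENSMUSG00000058135, chromosome 3, 108012255 to 108017973, minus strand). It had 24, 15 and 16 counts in CKBA1, CKBA2 and CKBA3, against 77, 78 and 40 counts in DMSO1, DMSO2 and DMSO3. After scaling these were 1.19, 0.731 and 0.625 CPM with CKBA, against 3.92, 3.83 and 1.88 CPM with DMSO. The groups did not overlap, and DMSO3 lay nearer to CKBA1 than to the other DMSO libraries. Gstm1 fell, with a log2 fold change of -1.92 ± 0.40 (edgeR quasi-likelihood, BH-adjusted p = 0.0166). The call was lost without CKBA2, DMSO1 or DMSO2 (adjusted p = 0.0746 to 0.0789, edgeR), and with libraries 1 and 2 summed (0.188). Of the 50-base stretches of its longest coding transcript, 23.1% occur in another gene, mainly the pseudogene Gstm2-ps1 and Gstm3, so its value is uncertain.

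Among other mu-class genes, Gstm5 had 0.395, 0.292 and 0.352 CPM in CKBA1, CKBA2 and CKBA3, against 1.37, 1.42 and 1.18 CPM in DMSO1, DMSO2 and DMSO3. It was low in all 6 libraries and passed the filter on low counts only through DMSO, with 0 CKBA libraries and 3 DMSO libraries above the minimum, so it had to differ to be tested. Its log2 fold change was -1.92 ± 0.34 (edgeR quasi-likelihood, BH-adjusted p = 0.00942), a call lost without CKBA2, DMSO1 or DMSO2 (adjusted p = 0.0547 to 0.0578, edgeR). With no filter the log2 fold change was -1.91 (edgeR, BH-adjusted p = 0.00881). Gstm4 had 8.35, 8.58 and 9.88 CPM with CKBA, against 6.71, 7.36 and 7.49 CPM with DMSO and did not pass (edgeR, BH-adjusted p = 0.187). Gstm2, Gstm3 and Gstm6 had no count in any library. The genes most like Gstm1 over the 6 libraries, of 10090 candidates, were the stress kinase gene Zak (r = 0.996), Cacul1 (r = 0.994) and Tox4 (r = 0.994), and 322 genes exceeded 0.95. Zak had 5.88, 4.53 and 3.91 CPM with CKBA, against 15.8, 14.1 and 7.96 CPM with DMSO, with DMSO3 again the lowest DMSO library.

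Txn1 is the cytosolic thioredoxin, which reduces protein disulfides (ENSMUSG00000028367, chromosome 4, 57943373 to 57956411, minus strand). It had 200.4, 195 and 162 CPM in CKBA1, CKBA2 and CKBA3, against 146, 143 and 149.5 CPM in DMSO1, DMSO2 and DMSO3. All CKBA libraries lay above all DMSO libraries, and CKBA3 was the one nearest to DMSO. Txn1 rose, with a log2 fold change of 0.35 ± 0.09 (edgeR quasi-likelihood, BH-adjusted p = 0.0399). Within replicate numbers 1, 2 and 3 the log2 difference was 0.46, 0.45 and 0.11. The call was lost without CKBA1, CKBA2, DMSO1 or DMSO2 (adjusted p = 0.14 to 0.158, edgeR), and with libraries 1 and 2 summed (0.412).

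Txnrd1 is the selenoprotein that reduces thioredoxin with NADPH (ENSMUSG00000020250, chromosome 10, 82833951 to 82897712, plus strand). It had 147, 147 and 131 CPM in CKBA1, CKBA2 and CKBA3, against 126, 121 and 113 CPM in DMSO1, DMSO2 and DMSO3. The groups did not overlap, yet the log2 fold change of 0.24 ± 0.08 was not past the threshold (edgeR quasi-likelihood, BH-adjusted p = 0.0757). With the replicate block it was 0.24 ± 0.06 and passed (edgeR, BH-adjusted p = 0.0203), as it did without CKBA3 (adjusted p = 0.0163). The differences within replicate numbers 1, 2 and 3 were even, at 0.23, 0.28 and 0.22. Eid3 overlaps it on the same strand, and Gm38560 and Gm47073 on the opposite strand.

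RefSeq promoter entries were found for 7 of the 10 genes, and none for Cth, Gclc and Hmox1, which were not searched. The 250 bases before the start of Gclm and of 1 of 3 listed starts of Txnrd1 are shown because, of these entries, they held the core letters of the antioxidant response element, TGACNNNGC (searched on both strands, in capitals), as did 10.2% of 32851 such windows of all genes:
Gclm, chr3:122245307-122245556, plus strand: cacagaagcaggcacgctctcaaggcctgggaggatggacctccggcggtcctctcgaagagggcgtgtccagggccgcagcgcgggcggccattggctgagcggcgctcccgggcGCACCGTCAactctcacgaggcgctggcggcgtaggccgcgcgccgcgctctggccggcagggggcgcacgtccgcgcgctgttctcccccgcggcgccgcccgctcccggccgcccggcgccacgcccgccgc
Txnrd1, chr10:82858956-82859205, plus strand: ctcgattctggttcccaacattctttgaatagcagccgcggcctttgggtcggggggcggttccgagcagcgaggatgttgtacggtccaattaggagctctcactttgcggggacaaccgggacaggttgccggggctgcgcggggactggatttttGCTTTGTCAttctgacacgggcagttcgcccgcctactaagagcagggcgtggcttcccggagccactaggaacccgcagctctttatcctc
The match lay on the opposite strand in both, at -134 to -126 in Gclm and at -92 to -84 in Txnrd1, and no match of one motif overlapped one of the other. The windows of Gss, Gstm1, Txn1, Nqo1 and Cbs held neither set of letters, which says nothing of the factor itself.

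Hmox1 encodes haem oxygenase 1, which splits haem into biliverdin, iron and carbon monoxide (ENSMUSG00000005413, chromosome 8, 75093621 to 75100589, plus strand). It had 174, 182 and 543 counts in CKBA1, CKBA2 and CKBA3, against 104, 97 and 133 counts in DMSO1, DMSO2 and DMSO3. After scaling these were 8.60, 8.87 and 21.2 CPM with CKBA, against 5.29, 4.76 and 6.26 CPM with DMSO. Every CKBA library lay above every DMSO library, and CKBA3 stood far above the other 5 libraries. Hmox1 rose, with a log2 fold change of 1.25 ± 0.36 (edgeR quasi-likelihood, BH-adjusted p = 0.0484). Without CKBA3 it was 0.68 (edgeR, BH-adjusted p = 0.0259). The call was lost without CKBA1, CKBA2, DMSO1, DMSO2 or DMSO3 (adjusted p = 0.0587 to 0.171, edgeR), and with libraries 1 and 2 summed (0.217).

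Myeloid cells can hold much Hmox1. Their 8 markers summed to 5.19, 6.63 and 6.83 CPM in CKBA1, CKBA2 and CKBA3 and to 7.93, 6.28 and 6.50 CPM in DMSO1, DMSO2 and DMSO3, and at most 1 of the 8 was at 0 in a library. Csf1r, the receptor that defines macrophages, was at 0.0988, 0.487 and 0.0391 CPM in CKBA1, CKBA2 and CKBA3, against 0.508, 0.393 and 0.330 CPM in DMSO1, DMSO2 and DMSO3. It was thus near 0 in CKBA3, the library with the most Hmox1.

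Nqo1 is a quinone reductase widely used as a reporter of NRF2 activity (ENSMUSG00000003849, chromosome 8, 107388225 to 107403206, minus strand). It had 12, 20 and 21 counts in CKBA1, CKBA2 and CKBA3, against 3, 16 and 6 counts in DMSO1, DMSO2 and DMSO3. DMSO2 lay above CKBA1, so the groups overlapped. The log2 fold change was 0.96 ± 0.57 (edgeR quasi-likelihood, BH-adjusted p = 0.288). Without DMSO2 it was 1.84, and without DMSO1 it was 0.58, and neither passed (adjusted p = 0.117 and 0.593, edgeR). Group sums were 53 counts with CKBA (95% exact Poisson interval 39.7 to 69.3) and 25 counts with DMSO (16.2 to 36.9). These intervals cover counting error only and leave out the spread between libraries, which ran from 3 to 16 counts with DMSO.

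**Figure D3:**
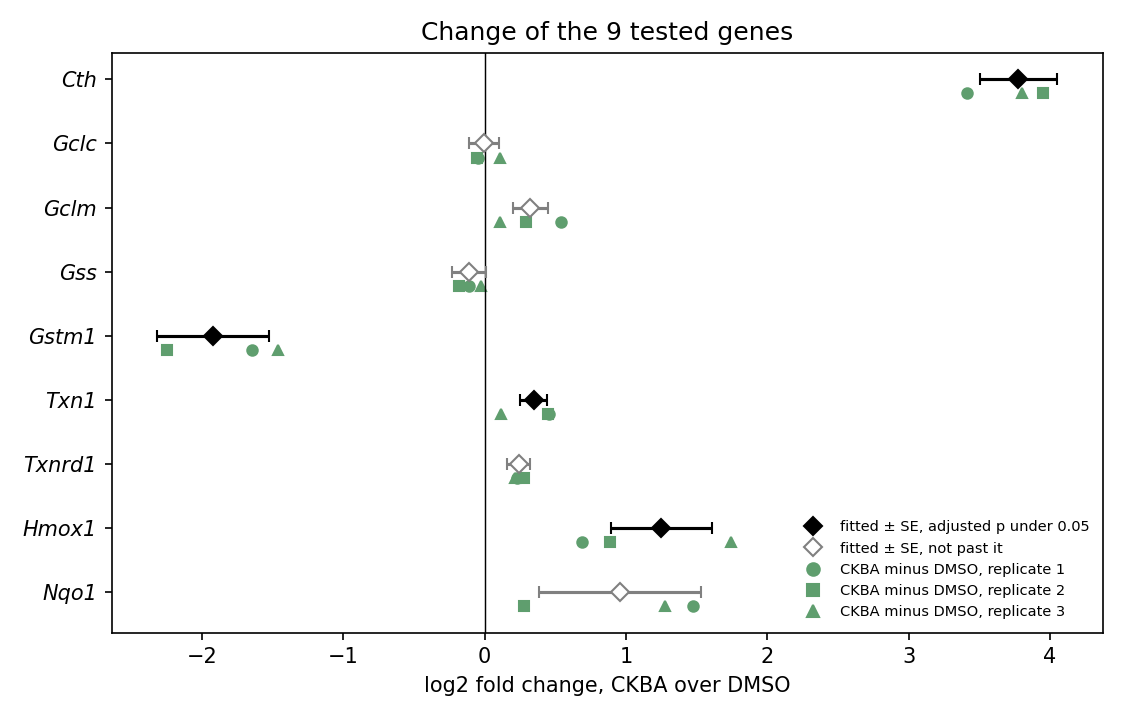
Log2 fold change of CKBA over DMSO (x axis) for the 9 tested genes, as the fitted value ± SE (diamonds, filled where the adjusted p was under 0.05) and as the difference between libraries of the same replicate number (green symbols). Cth, at 3.78 ± 0.28, lies farthest from 0, and the differences of Txnrd1 are close together, at 0.22 to 0.28.

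Other genes of these pathways were taken from 10 lists, also chosen with earlier results of these data known. Of 117 such genes, 100 were tested, and 9 were higher and 6 lower with CKBA, shares close to the 7.86% and 9.23% of all tested genes. Their median log2 fold change was -0.01, beside 0.01 over all tested genes. With the replicate block 15 were higher and 16 lower, close to the 13.8% and 14.4% of all tested genes called with the block. With libraries 1 and 2 summed 1 was higher (Slc3a2) and 0 were lower, where 56 and 54 of all genes were called.

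In the methionine cycle and polyamine list, which lies upstream of transsulfuration, 4 of 11 genes were higher and 0 lower, against 7.86% and 9.23% of all tested genes, with a median log2 fold change of 0.19, beside 0.01 over all tested genes. Sms, spermine synthase, had 97.1, 95.7 and 94.8 CPM in CKBA1, CKBA2 and CKBA3, against 77.7, 68.3 and 72.5 CPM in DMSO1, DMSO2 and DMSO3. Its groups did not overlap, and the log2 fold change was 0.40 ± 0.08 (edgeR quasi-likelihood, BH-adjusted p = 0.0128). Mtap, which recycles methylthioadenosine, had 63.9, 60.4 and 49.1 CPM with CKBA, against 38.4, 36.8 and 40.7 CPM with DMSO, a log2 fold change of 0.58 ± 0.11 (edgeR, adjusted p = 0.0134). Mtrr, methionine synthase reductase, had 37.7, 42.2 and 38.4 CPM with CKBA, against 27.8, 31.8 and 30.8 CPM with DMSO, and Mtr, methionine synthase, 47.8, 47.1 and 54.1 CPM with CKBA, against 35.7, 34.5 and 42.3 CPM with DMSO. Their log2 fold changes were 0.39 ± 0.09 and 0.40 ± 0.11 (adjusted p = 0.0286 and 0.0382, edgeR as above). The Sms call was lost without CKBA1, CKBA2 or DMSO2 (adjusted p = 0.0581 to 0.0706, edgeR). The Mtap call was lost without CKBA1, CKBA2, DMSO1 or DMSO2 (adjusted p = 0.0641 to 0.0763, edgeR), as were those of Mtrr and Mtr without any 1 of the same 4 libraries, with adjusted p of up to 0.163 (edgeR).

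In glutathione synthesis and turnover, 1 of 11 other genes was higher (Chac1) and 2 were lower, against 7.86% and 9.23% of all tested genes. Ggt5, of the γ-glutamyltransferase family, had 1.53, 2.39 and 3.01 CPM in CKBA1, CKBA2 and CKBA3, against 7.88, 8.05 and 10.3 CPM in DMSO1, DMSO2 and DMSO3. The groups were far apart, with a log2 fold change of -1.91 ± 0.27 (edgeR quasi-likelihood, BH-adjusted p = 0.00396), and the call held whichever library was left out. Ggt7, of the same family, overlaps Acss2 on the opposite strand, and strand was not stated for the libraries, so their reads there cannot be told apart. Ggt7 had 7.41, 8.58 and 6.48 CPM with CKBA, against 27.6, 26.4 and 8.29 CPM with DMSO. DMSO3 lay within the CKBA range, and the log2 fold change was -1.47 ± 0.40 (edgeR, adjusted p = 0.0427), a call lost without CKBA1, CKBA2, CKBA3, DMSO1 or DMSO2 (adjusted p = 0.135 to 0.166, edgeR). Gsr, which regenerates reduced glutathione, had 48.4, 44.3 and 37.5 CPM with CKBA, against 55.8, 57.1 and 38.3 CPM with DMSO and did not pass (edgeR, BH-adjusted p = 0.412).

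Of 4 glutathione peroxidase genes tested, 0 were called by edgeR, DESeq2 or limma. By edgeR 7.86% of all tested genes were higher and 9.23% lower, so 0 of so few genes says little. By edgeR 1 of the 4 had an unadjusted p under 0.05, a threshold for which no share of all genes was counted. The most abundant were Gpx4, which reduces lipid peroxides, at 168 ± 9.53 CPM with CKBA and 164 ± 7.95 CPM with DMSO, and Gpx1, at 157 ± 29.4 CPM with CKBA and 183 ± 7.09 CPM with DMSO (SD, n = 3 each). Of 13 other glutathione transferase genes tested, 1 was higher and 1 lower, against 7.86% and 9.23% of all tested genes. They were Gstcd, with a log2 fold change of 0.38 ± 0.10 (edgeR quasi-likelihood, BH-adjusted p = 0.0408), and Gstm5. The Gstcd call was lost without CKBA1, CKBA2, DMSO1, DMSO2 or DMSO3 (adjusted p = 0.0716 to 0.159, edgeR). In the thioredoxin list, against the same 7.86% and 9.23% of all tested genes, 0 of 19 other genes were higher and 1 was lower. This was Glrx, glutaredoxin, with 28.6, 27.1 and 22.5 CPM in CKBA1, CKBA2 and CKBA3, against 43.9, 45.7 and 32.6 CPM in DMSO1, DMSO2 and DMSO3. The groups did not overlap, and the log2 fold change was -0.65 ± 0.15 (edgeR quasi-likelihood, BH-adjusted p = 0.025), a call lost without CKBA1, CKBA2, DMSO1 or DMSO2 (adjusted p = 0.066 to 0.117, edgeR).

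In the quinone and haem list of NRF2 targets, 1 of 13 other genes tested was higher, Slc7a11, which ATF4 also controls, and 0 were lower. Of all tested genes 7.86% were higher and 9.23% lower. Srxn1, sulfiredoxin, had 7.16, 8.43 and 7.07 CPM with CKBA, against 6.66, 6.72 and 4.94 CPM with DMSO (log2 fold change 0.31 ± 0.19; edgeR, BH-adjusted p = 0.294). The ferritin chains Fth1 and Ftl1 had log2 fold changes of -0.19 ± 0.11 and 0.15 ± 0.09 (edgeR, BH-adjusted p = 0.257 and 0.276). Of 5 NADPH-producing enzymes tested, 0 were called by edgeR or limma and 1 by DESeq2. The share of all tested genes by edgeR was the same 7.86% and 9.23%, and DESeq2 called 1332 genes higher and 1565 lower. By edgeR 2 of the 5 had an unadjusted p under 0.05, with no share of all genes counted at that threshold. With the replicate block 3 of the 5 were lower, against 14.4% of all tested genes. Of these 5 enzymes Tkt, transketolase, had a log2 fold change of 0.05 ± 0.08. Pgd, 6-phosphogluconate dehydrogenase, had 96.3, 88.5 and 78.4 CPM with CKBA, against 155, 155 and 94.5 CPM with DMSO. Pgd had a log2 fold change of -0.62 ± 0.19 (edgeR, BH-adjusted p = 0.0559, 0.00729 with the replicate block and 0.00762 by DESeq2). Of 3 superoxide and peroxide genes, 0 were called by edgeR, DESeq2 or limma, against 7.86% and 9.23% of all tested genes by edgeR. By edgeR 1 of the 3 had an unadjusted p under 0.05, again with no share of all genes counted. Sod1 had a log2 fold change of 0.22 ± 0.08 (edgeR, BH-adjusted p = 0.0917, and 0.0288 with the replicate block) and Sod2 of 0.09 ± 0.10.

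Among NRF2 and its regulators, 1 of 12 tested genes was higher and 2 were lower, against 7.86% and 9.23% of all tested genes. Nfe2l2, which encodes NRF2, had 44.3, 45.2 and 50.9 CPM in CKBA1, CKBA2 and CKBA3, against 46.9, 52.2 and 55.0 CPM in DMSO1, DMSO2 and DMSO3. The groups overlapped, with a log2 fold change of -0.13 ± 0.10 (edgeR quasi-likelihood, BH-adjusted p = 0.382). Keap1, the adaptor that targets NRF2 for degradation, had 66.5, 63.5 and 66.0 CPM with CKBA, against 83.8, 88.2 and 73.0 CPM with DMSO. It fell, with a log2 fold change of -0.32 ± 0.09 (edgeR, adjusted p = 0.0437), a call lost without CKBA1, CKBA2, DMSO1 or DMSO2 (adjusted p = 0.122 to 0.18, edgeR). Nfe2l1, which encodes NRF1, a related activator of proteasome genes, had 194, 191 and 188 CPM with CKBA, against 113, 108 and 114 CPM with DMSO. It rose, with a log2 fold change of 0.78 ± 0.07 (edgeR, adjusted p = 5.63e-04), and was called whichever library was left out. Bach1, a repressor of Hmox1, had a log2 fold change of -0.14 ± 0.15 and did not pass (edgeR, BH-adjusted p = 0.573). Bach2, a related repressor that restrains effector T cells, had 219, 231 and 287 CPM with CKBA, against 328, 335 and 398 CPM with DMSO, a log2 fold change of -0.52 ± 0.12 (edgeR, adjusted p = 0.025), a call lost without CKBA1, CKBA2, DMSO1 or DMSO2 (adjusted p = 0.0659 to 0.107, edgeR).

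**Figure D4:**
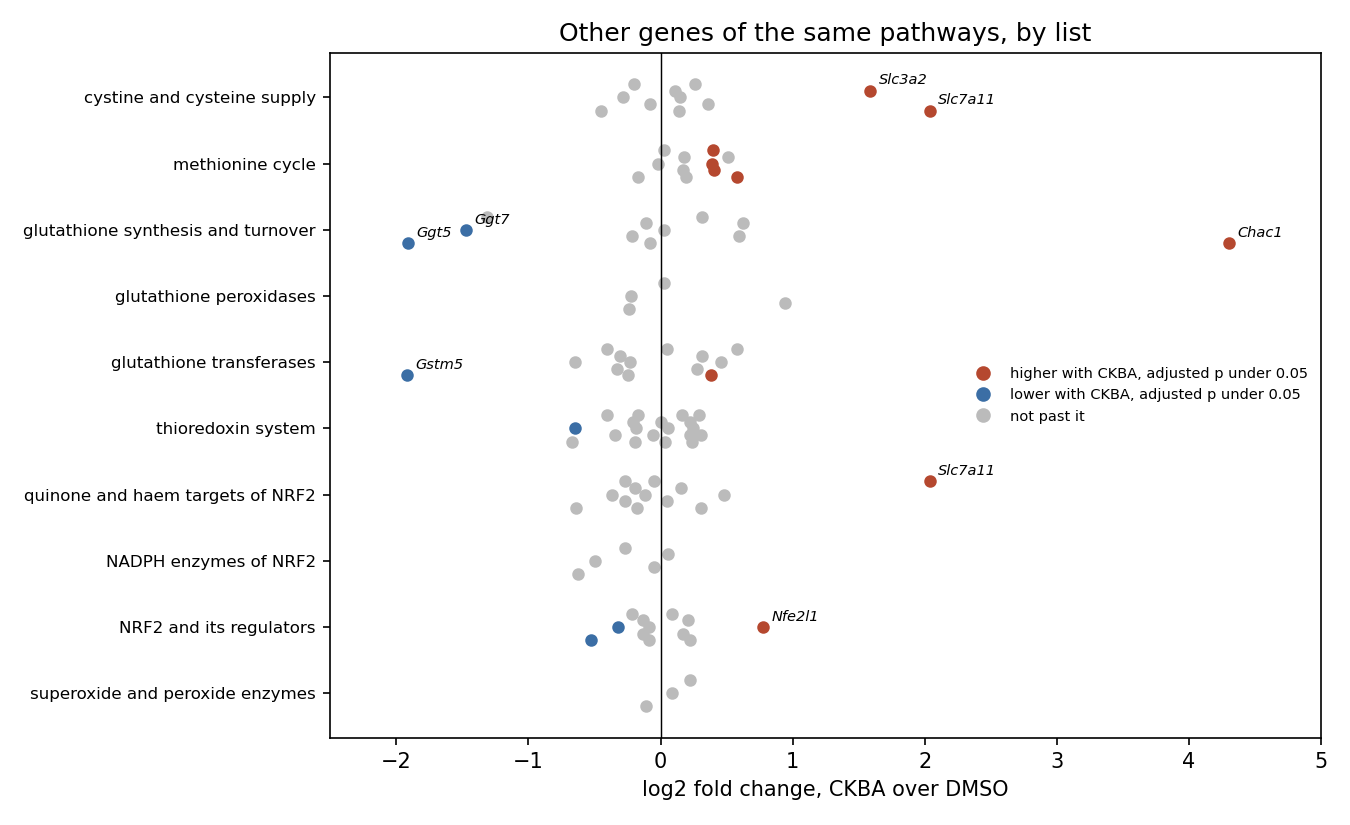
Log2 fold change of CKBA over DMSO (x axis) for the tested other genes of each pathway list (rows); each point is 1 gene, red or blue where the adjusted p was under 0.05 and grey otherwise, and genes in 2 lists appear in both. Chac1, Slc7a11 and Slc3a2 lie far to the right and Ggt5, Gstm5 and Ggt7 far to the left, while the medians of the lists lie between -0.27 and 0.19.

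In the authors' deposited table, Cth, Gstm1, Hmox1 and Txn1 had an FDR of 6.67e-31, 1.78e-04, 0.00381 and 0.0457, and the other 6 genes had an FDR of 0.16 to 0.992. Of all genes in that table, undetected ones included, 2.4% were higher and 2.81% lower with CKBA at an FDR under 0.05.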

How the data were processed

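The authors deposited whole-number estimated counts (expected counts) per gene and library. The submitters' processing notes name CASAVA 1.8, RSEM and edgeR, and the build GRCm38. The same table held the authors' FPKM, log2 fold changes and p-values with FDR. Aligner, annotation release and strand were not given in the sources used here. RSEM divides reads that match several genes. Of 47725 identifiers, 47306 matched GENCODE M21, which gave coordinates. A deposited pathway annotation was not used here.

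The test of the counts was that of edgeR 4.0.16, run in R 4.3.3 (quasi-likelihood F test, robust, TMM, filterByExpr with a minimum count of 10), Benjamini-Hochberg adjustment over 13928 genes and an adjusted p under 0.05. The SE is the log2 fold change divided by the root of F. CPM are counts over TMM-scaled library sizes. The code was also run on simulated counts with independent libraries. These lacked the replicate structure of the real libraries, so that run does not bear on error rates here. Alternatives were RLE scaling, no filter, DESeq2 1.42.0, limma 3.58.1 on log2(FPKM + 1) or log2(FPKM + 0.1), the replicate block, each library left out, replicates 1 and 2 summed, and only replicates 1 and 2. The block takes replicate numbers to pair the groups, which the labels do not state. Same-numbered libraries deviated together (0.24, 0.24 and 0.44 over 13928 genes), but deviations from a group mean are tied to each other. Replicate 1 of one group correlated as well with replicate 2 of the other, so the values do not single out a pairing of 1 with 1 and 2 with 2.

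The 10 genes and the pathway lists were chosen with earlier results of these data known. Of 170 listed symbols all matched, 2 by identifier. Besides the 10 genes, named genes were, per list, the called genes ranked first by adjusted p (at most 3), or where none was called the 2 of highest abundance, plus Nfe2l2, Keap1, Bach1 and the genes most like Cth and Gstm1. Others named were chosen after their values were seen.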

Additional observations from a re-analysis of the deposited data

How the results depend on the processing

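Of the 10 genes, Cth kept its call in each alternative run. RLE scaling changed no call of a named gene. With the replicate block, 1922 genes were higher and 2009 lower. Of the 10 genes 5 were higher (Gclm and Txnrd1 added) and 1 was lower, and of the other pathway genes 15 and 16. Pgd, Sod1 and Tox4 passed as well, and the block ended no call of a named gene. With limma on log2(FPKM + 1), 894 of all tested genes were higher and 1135 lower, and with log2(FPKM + 0.1) 942 and 1184. In each of these fits 1 of the 10 genes was higher and 1 lower. With libraries 1 and 2 summed, 56 genes were higher and 54 lower, of the 10 genes 1 and 0, and of the other pathway genes 1 and 0. With only replicates 1 and 2 of each group, 3660 genes were higher and 3728 lower. Of the 10 genes 5 were higher and 1 lower in that fit, and of the other pathway genes 29 and 32. When 1 library was left out, the numbers ran from 251 to 1961 genes higher and 390 to 2014 lower, 1 to 5 and 0 to 1 of the 10 genes, and 3 to 20 and 1 to 13 other pathway genes. The lowest counts came without a DMSO or CKBA replicate 1 or 2 and the highest number of higher genes without CKBA replicate 3; the cause was not tested. Gclc, at -0.00076, changed sign without a filter (0.0086), with the block (0.0045), with DESeq2 (0.0026), with libraries 1 and 2 summed (0.025) and over the fits that left out 1 library (-0.092 to 0.063). Gpx4 ranged from -0.0058 to 0.073 over those fits. Of the named calls, Hmox1 and Ggt7 were lost without a filter (adjusted p by edgeR = 0.112 and 0.229), and Hmox1, Ggt7, Txn1 and Gstcd with both limma fits (adjusted p by limma = 0.0525 to 0.0977). DESeq2 ended none and added Pgd. Depth limits Cbs, Nqo1, Gstm1, Gstm5 and Slc7a11, with at most 81 counts in a library. Some fits rest on 2 libraries in a group.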

Other observations

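Some genes of these pathways followed the replicate number. They were chosen after their values were seen, and none passed edgeR's test over all 6 libraries without the replicate block. Mgst2, Txnip and Ggt1 were picked for how library 3 differed, so a fit that leaves it out favours them by choice. That all of them passed with only libraries 1 and 2 of each group, and Txnip without DMSO3, is therefore no support for a change. The fit on libraries 1 and 2 called 3660 genes higher and 3728 lower, so a call in it is common. The spread between libraries 1 and 2 may be technical. Mgst2, a microsomal glutathione transferase, had 20.5, 23.9 and 60.7 CPM in CKBA1, CKBA2 and CKBA3, against 25.8, 28.8 and 69.2 CPM in DMSO1, DMSO2 and DMSO3. In both groups library 3 stood above the other libraries, and with the replicate block the log2 fold change was -0.26 (edgeR, BH-adjusted p = 0.0439). Txnip, which binds and inhibits thioredoxin, had 225, 222 and 169.6 CPM with CKBA, against 423, 432 and 127 CPM with DMSO. DMSO3 was the lowest of the 6 libraries, and the difference within replicate number 3 was opposite in sign to those within numbers 1 and 2. Ggt1, a γ-glutamyltransferase, had 3.26, 3.95 and 6.48 CPM with CKBA, against 5.80, 7.61 and 20.8 CPM with DMSO. CKBA was lower within each replicate number, and with the replicate block the log2 fold change was -1.19 (edgeR, BH-adjusted p = 0.0043; 0.104 without the block and 0.0122 by DESeq2).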
